A study of Mus musculus with 6 samples.

Results

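Described here are 10 genes of the Toll-like receptor pathway in the mouse nucleus accumbens: the receptor genes Tlr2, Tlr4, Tlr3, Tlr7 and Tlr9, the co-receptor genes Cd14 and Ly96, the adaptor gene Myd88, and the NF-kB subunit genes Nfkb1 and Rela. They were taken by gene symbol, through the Ensembl identifiers of the deposited catalogues. All 10 were found among the 15939 genes that any of the 6 libraries listed. The libraries came from total RNA of the nucleus accumbens, a striatal region of the reward circuit, of C57BL/6N mice. The morphine group held 3 libraries, numbered 4, 5 and 6, from mice given morphine injections in conditioned place preference, a test in which an animal learns to link a chamber with a drug. The saline group held 3 libraries, numbered 1, 2 and 3, from mice given saline injections in the same training. The design text gives 6 mice per group without saying how they map to samples, so p-values here measure the spread between samples. The sources used here state no dose, age or sex, and no transgene or other allele is named for either group.

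Toll-like receptors bind conserved molecules of microbes and of damaged cells. In the brain they are carried mainly by microglia, the resident macrophages. Receptors at the cell surface bind lipids and proteins and receptors in endosomes bind nucleic acids; most signal through Myd88 and a chain of kinases that frees NF-kB, a transcription factor of inflammatory genes, to enter the nucleus. The pair of Tlr4 and Ly96 has also been proposed as a site at which opioids act on glia.

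The deposited table of each library lists how the transcripts assembled from it begin, end and are spliced, and holds no expression levels, so the measure per gene was its number of distinct listed events. There were 5 classes of event: a first exon, a last exon, a skipped exon, a retained intron, and an exon with an alternative end. A gene assembled as a single spliced structure has 2 events, 1 first exon and 1 last exon. Each of these is listed by its splice site, which a transcript without introns lacks. Whether such a transcript can be listed was not checked. Of all listed genes, 17.4% had 2 events, of whatever class, in each of the 6 libraries. The catalogues held 57981, 56546 and 56416 distinct events in the morphine libraries and 58007, 54641 and 57132 in the saline libraries. Intron retention differed most between libraries, with 7523, 6361 and 7018 events in morphine and 7425, 5074 and 5010 in saline. Read depth is unknown, so no counting interval or floor was computed, and a gene or event that a catalogue does not list is not thereby shown to be absent. In bulk tissue, fewer cells of a type and less RNA per cell cannot be told apart. The sources name no genome build; coordinates are read on GRCm38, where 63.6% of all distinct events, and 6.2% of retention events, had annotated boundaries in GENCODE M21. For each gene, its transcript with the lowest number in that annotation is called its reference transcript.

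Morphine and saline libraries did not overlap in event number for 1 of the 10 genes, Tlr3, which had fewer events in each morphine library than in any saline library. Over all 15040 tested genes, 1.43% were non-overlapping in that direction and 3.07% in either direction. Nfkb1 and Rela held the widest range of events, and 4 genes (Tlr2, Tlr7, Tlr9 and Ly96) were missing from at least 1 catalogue. The other 6 of the 10 were in all 6 catalogues, beside 81.2% of all listed genes. None of the 10 genes passed the limma test over all tested genes at an adjusted p of 0.05, where 0.638% of genes did (0.199% higher and 0.439% lower in morphine), and the members' adjusted p ran from 0.323 for Tlr3 to 1.0. At an unadjusted p under 0.05 limma counted 1 of the 10, again Tlr3, beside 480 of all 15040 tested genes. The exact two-sided permutation test used beside it cannot go below 0.1 with 3 against 3 libraries.

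**Figure D1:**
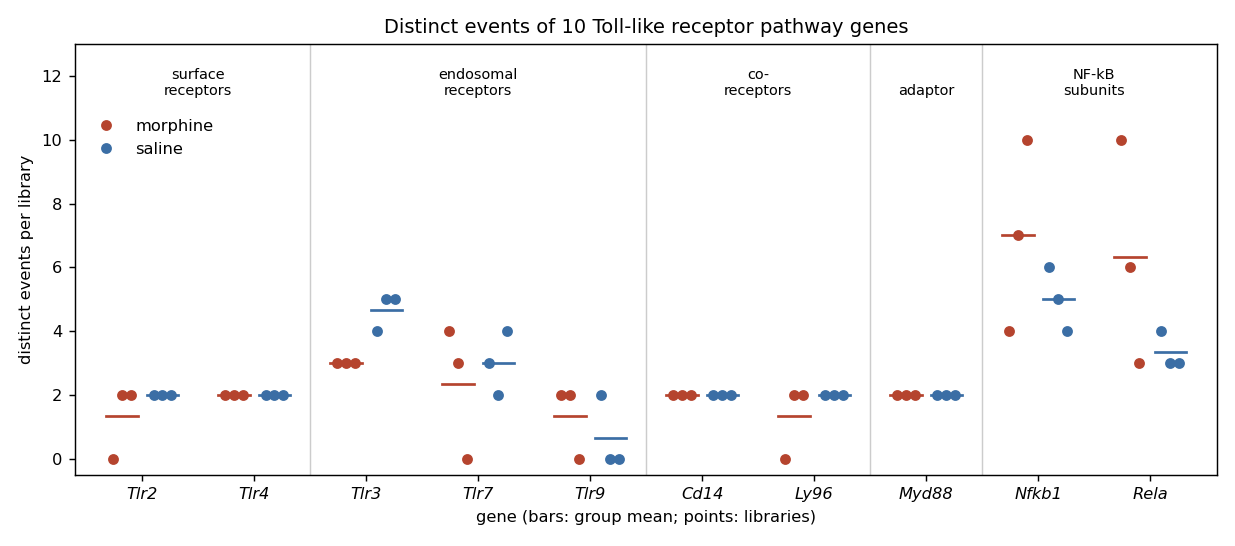
Distinct events per library (vertical axis, linear) for the 10 genes by role; red points are the 3 morphine libraries, blue points the 3 saline libraries, and bars the group means. Tlr3 had 3 events in each morphine library and 4 or 5 in the saline libraries, while Nfkb1 and Rela reached 10 events in a single morphine library each.

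Among the surface receptors, Tlr4, which binds bacterial lipopolysaccharide with Ly96, was the most uniform. It had 2 events in every morphine library and 2 in every saline library. Both were the same exons in all 6, a first exon at chr4:66827584-66827921 and a last exon at chr4:66839229-66842800 on the plus strand, the outer exons of the reference transcript. Tlr2, which recognises bacterial lipoproteins, had 0, 2 and 2 events in morphine libraries 4, 5 and 6 and 2, 2 and 2 in saline libraries 1, 2 and 3. The groups overlapped, and morphine library 4 did not list the gene (limma adjusted p 0.905; exact permutation p 1.0, n = 3 each, the unlisted library entered as 0 events).

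The libraries that listed Tlr2 differed in where it began. Morphine 6 and saline 3 had the annotated first exon, chr3:83841520-83841767 on the minus strand. Morphine 5, saline 1 and saline 2 instead ended their first exon at position 83840889, the splice site of the annotated second exon, with ranges that began at 83841058, 83841318 and 83841131. Both patterns occurred in both groups, and all 5 libraries shared the splice site of the last exon at 83838789. The bases just before the annotated first exon are shown because they precede the start that only some libraries assembled. They are chr3:83841768-83841858 on the minus strand, 91 bases from the RefSeq promoter table for GRCm38.p6, with capitals marking overlapping matches to the kappaB consensus, the DNA motif of NF-kB.
Tlr2 upstream: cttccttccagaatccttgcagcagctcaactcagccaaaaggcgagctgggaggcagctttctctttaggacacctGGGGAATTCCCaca
The kappaB consensus was searched on both strands of the windows from 250 bases before to 50 bases after each RefSeq start, and 4.51% of 32851 promoters held it. RefSeq windows were found for 5 of the 10 genes. The consensus was matched in those of Tlr2 and Tlr3 and not in those of Tlr9, Myd88 and Rela.

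Tlr3, the endosomal receptor of double-stranded RNA, which signals through the adaptor Ticam1, had 3 events in each of morphine libraries 4, 5 and 6 and 4, 5 and 5 events in saline libraries 1, 2 and 3. Every morphine library lay below every saline library, by 1.67 events on average, with 3.0 ± 0.0 events in morphine and 4.67 ± 0.577 in saline (SD, n = 3 each). On the log2(events + 0.5) scale the difference was -0.56 with a standard error of 0.09, with a limma adjusted p of 0.323 and an exact permutation p of 0.1, the smallest possible. Without saline library 1 the adjusted p of limma was 0.000151 at a difference of -0.65, since the remaining libraries then had no spread within either group (3, 3 and 3 events in morphine, 5 and 5 in saline). With all 6 libraries kept, it was 0.965 under limma's robust option and 0.9 with annotated events alone. The lowest such value was 0.308, with 0.1 in place of 0.5 added to the events.

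The separation of Tlr3 rested on 2 events, the alternative forms of the same exon, each counted as an event. With the pair counted as a single event, saline library 1 would be level with the morphine libraries and the groups would overlap. All 3 saline libraries and none of the morphine libraries listed the noncoding second exon with alternative ends, as chr8:45409796-45409990 (195 bases, as in the reference transcript) and chr8:45409796-45409978 (183 bases, as in other annotated transcripts) on the minus strand. Of the 128790 distinct events of all genes, 0.345% were listed in 3 saline and 0 morphine libraries and 0.321% in 3 morphine and 0 saline libraries; of the 7797 events that exactly 3 libraries listed, 5.69% were in the 3 saline ones. Morphine library 5 listed the 195-base form too, but as an exon skipped in another assembled transcript, so that exon was not confined to saline libraries. Without intron retention and alternative exon ends the difference was 0.16 on the log2 scale, with the sign turned, and with first and last exons alone it was 0.0.

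The start of Tlr3 also varied. Every library had a first exon ending at position 45410453, and saline libraries 2 and 3 had another ending at 45410120, also an annotated splice site. Morphine library 6 had, as its second first exon, an unannotated one of 44 bases at chr8:45409223-45409266, and morphine library 4 had an extra last exon at chr8:45395670-45399222 beside the annotated one, chr8:45395665-45397141, that all 6 libraries listed. In the morphine libraries the event beyond the common pair was thus of a different kind in each, an extra last exon, a skipped exon and an extra first exon in libraries 4, 5 and 6.

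**Figure D2:**
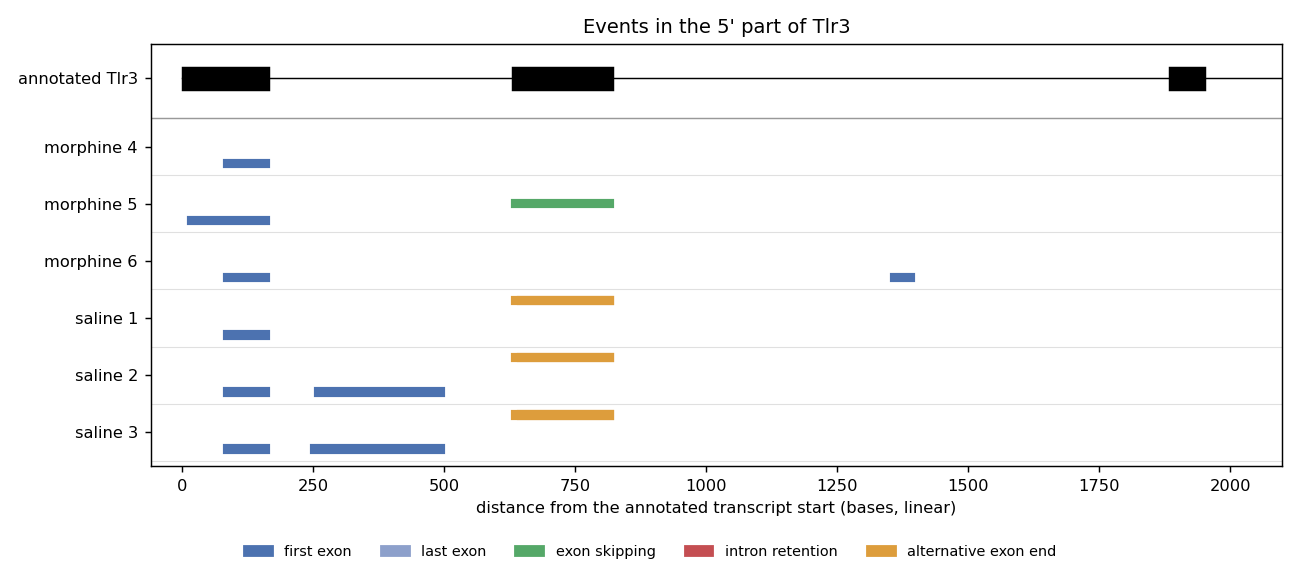
Events in the 5′ part of Tlr3 by library, against the exons of the reference transcript (black); the horizontal axis is the distance in bases from the annotated transcript start, and colours give the event class. The alternative ends of the second exon (orange) appear in all 3 saline libraries, and morphine 5 shows the same exon as skipped (green).

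Tlr7, a receptor of single-stranded RNA, had 4, 3 and 0 events in morphine libraries 4, 5 and 6 and 3, 2 and 4 in saline libraries 1, 2 and 3. The groups overlapped, and morphine library 6 did not list the gene (limma adjusted p 0.998; exact permutation p 0.9). On chromosome X, minus strand, 2 first exons recurred. The one ending at 167330401 was in morphine 4 and 5 and saline 1 and 3, and the one ending at 167330437 was in all 5 libraries that listed Tlr7. Skipping was listed once in each group, of the exon chrX:167309281-167309361 (81 bases) in morphine 4 and of the stretch chrX:167308789-167309361, which holds that exon and its neighbour, in saline 3.

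Tlr9, the receptor of unmethylated CpG DNA, had 2, 2 and 0 events in morphine libraries 4, 5 and 6 and 2, 0 and 0 in saline libraries 1, 2 and 3. It was the least often listed of the 10 genes, present in 2 morphine catalogues and 1 saline catalogue, and the groups overlapped (limma adjusted p 0.998; exact permutation p 1.0). Wherever it was listed its exons were those of the reference transcript, chr9:106222598-106222706 and chr9:106223515-106226883 on the plus strand.

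The co-receptor Cd14, which hands lipopolysaccharide to the Tlr4 complex, had 2 events in every morphine library and 2 in every saline library. Its first and its last exon had the same boundaries in all 6.

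Ly96 encodes MD-2, the lipopolysaccharide-binding partner of Tlr4, and had 0, 2 and 2 events in morphine libraries 4, 5 and 6 and 2, 2 and 2 in saline libraries 1, 2 and 3. The groups overlapped, and morphine library 4, which also lacked Tlr2, did not list it (limma adjusted p 0.905; exact permutation p 1.0). Saline library 1 differed from the others in the structure of Ly96: its first exon began upstream, at 16687803 on chromosome 1, and its transcript ended in the exon at chr1:16706173-16706222. The other 4 libraries had chr1:16688433-16688619 and chr1:16709439-16709611, the outer exons of the reference transcript. Another annotated splice form lacks the first 54 bases of the third exon (chr1:16700795-16700923, plus strand, 129 bases); they are in capitals in the GENCODE M21 sequence, which is shown because no library listed an event at this choice.
Ly96 exon 3: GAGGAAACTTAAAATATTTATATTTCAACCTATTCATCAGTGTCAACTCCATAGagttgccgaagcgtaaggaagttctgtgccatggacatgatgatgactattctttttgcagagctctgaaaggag

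Myd88, the adaptor that links most of these receptors to Irak kinases, had 2 events in every morphine library and 2 in every saline library. The exons were those of the reference transcript in all 6, chr9:119339632-119340041 first and chr9:119335934-119336899 last, on the minus strand. Loss of the second exon, which encodes the region that recruits Irak4, gives the inhibitory short form of the adaptor; no morphine or saline library listed that skip. The exon lies at chr9:119338576-119338710 and its 135 bases leave the reading frame intact. It is in capitals, between 15 bases of each neighbouring exon, in the GENCODE M21 sequence.
Myd88 exon 2: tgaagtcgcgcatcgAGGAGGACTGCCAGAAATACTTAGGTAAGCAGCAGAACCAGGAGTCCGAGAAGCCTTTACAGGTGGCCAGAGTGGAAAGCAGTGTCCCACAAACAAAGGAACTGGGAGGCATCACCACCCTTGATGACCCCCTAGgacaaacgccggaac

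Nfkb1 encodes p105, the precursor of the DNA-binding subunit p50 whose C-terminal part holds NF-kB back in the cytoplasm. It had 4, 7 and 10 events in morphine libraries 4, 5 and 6 and 6, 5 and 4 in saline libraries 1, 2 and 3. Morphine 5 and 6 were above all saline libraries and morphine 4 was level with the lowest, so the groups overlapped. The means were 7.0 ± 3.0 in morphine and 5.0 ± 1.0 in saline (SD, n = 3 each), a log2 difference of 0.38 with a standard error of 0.37 (limma adjusted p 0.905; exact permutation p 0.5). With 1 library left out the Nfkb1 difference ran from 0.10, without morphine library 6, to 0.71, without morphine library 4. In the latter the groups no longer overlapped (limma adjusted p 0.904), as for 1040 of all 14895 genes tested there. With all libraries kept, the Nfkb1 difference was 0.15 when retention and alternative ends were not counted and 0.10 for first and last exons by themselves.

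One internal event of Nfkb1 was common to all 6 libraries, the skipping of exon 24 of the 25 exons of the reference transcript. This exon, chr3:135589327-135589504 on the minus strand, is coding and has 178 bases, 1 more than a multiple of 3. An annotated transcript that goes without it reaches a stop codon at 135585408-135585410, while the reference transcript stops at 135585355-135585357. It was the only skipping, retention or alternative-end event of the 10 genes listed in every library, and its GENCODE M21 sequence is given with the exon in capitals and 15 bases of each neighbour in lower case.
Nfkb1 exon 24: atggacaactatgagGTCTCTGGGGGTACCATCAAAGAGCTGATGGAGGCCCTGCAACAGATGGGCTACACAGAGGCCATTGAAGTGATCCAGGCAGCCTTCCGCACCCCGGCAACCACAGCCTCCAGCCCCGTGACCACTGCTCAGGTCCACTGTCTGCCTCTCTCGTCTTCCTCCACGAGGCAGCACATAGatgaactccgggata

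The remaining Nfkb1 events differed from library to library. Retention numbered 0, 3 and 3 events in morphine libraries 4, 5 and 6 and 2, 0 and 0 in saline libraries 1, 2 and 3, and it touched 5 of the 24 introns of the reference transcript. Intron 12 (4118 bases) was retained in morphine 5, morphine 6 and saline 1, intron 22 (291 bases) in morphine 6 and saline 1, and introns 4, 5 and 10 in 1 morphine library each. Last exons numbered 2, 2 and 4 in morphine and 2, 3 and 1 in saline. Apart from the annotated 3′ end, these were transcripts ending inside the gene, at splice sites 135639156 (morphine 4 and saline 2), 135618967 (morphine 6 and saline 1) and, in 1 library each, 135655598, 135626743, 135603851 and 135669339. Morphine 6 also listed a skipped exon of 182 bases, chr3:135630222-135630403, that is not annotated.

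Rela encodes p65, the subunit that carries the transactivation domain of the main NF-kB dimer. It had 10, 6 and 3 events in morphine libraries 4, 5 and 6 and 4, 3 and 3 in saline libraries 1, 2 and 3. Morphine 4 and 5 were above all saline libraries and morphine 6 was level with the lowest, so these groups overlapped too. The means were 6.33 ± 3.51 in morphine and 3.33 ± 0.577 in saline (SD, n = 3 each), a log2 difference of 0.71 with a standard error of 0.45 (limma adjusted p 0.905; exact permutation p 0.4). With 1 library left out the Rela difference ran from 0.33, without morphine library 4, to 1.12, without morphine library 6. In the latter the groups did not overlap (limma adjusted p 0.711), as for 1003 of all 14915 genes tested there. With all libraries kept, the Rela difference was 0.16 when retention and alternative ends were not counted, and 0.16 for first and last exons by themselves.

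The outer exons of Rela were common to all 6 libraries, chr19:5637483-5637841 first and chr19:5646800-5648130 last on the plus strand. Retention made up 5, 3 and 1 of its events in morphine libraries 4, 5 and 6 and 2, 0 and 1 in saline libraries 1, 2 and 3. A retained stretch can count under several type codes, and distinct retained exons numbered 3, 2 and 1 in morphine and 2, 0 and 1 in saline, fewer than the events in morphine 4 and 5 and as many in the other 4 libraries. With each such exon counted once, a count chosen after seeing the data, Rela averaged 5.33 events in morphine and 3.33 in saline, a log2 difference of 0.52.

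By position, retention in Rela took in 5 of the 10 introns of the reference transcript. Intron 4 (855 bases) was retained in morphine 4, morphine 5, saline 1 and saline 3, and intron 5 (352 bases) in morphine 4, saline 1 and saline 3. Intron 6 (746 bases) was retained in morphine 6, saline 1 and saline 3, while introns 3 and 9 were each retained in 1 morphine library. Introns kept in any retention event thus numbered 3, 2 and 1 in morphine and 3, 0 and 3 in saline, an order unlike that of the event numbers. Intron 4 was the intron retained in the most libraries, and the exon between it and intron 5, chr19:5639859-5639950 (92 bases, coding), is given from GENCODE M21 in capitals between 15 bases of each neighbour.
Rela exon 5: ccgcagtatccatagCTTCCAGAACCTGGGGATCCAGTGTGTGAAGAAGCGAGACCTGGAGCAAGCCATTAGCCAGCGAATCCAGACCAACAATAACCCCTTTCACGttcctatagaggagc
Morphine 4 alone listed alternative ends of a Rela exon (chr19:5645325-5645405 and chr19:5645325-5645587) and a second last exon, chr19:5645513-5648130. Morphine 5 and saline 2 each listed a second first exon, at chr19:5638013-5638458 and chr19:5638008-5639003.

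**Figure D3:**
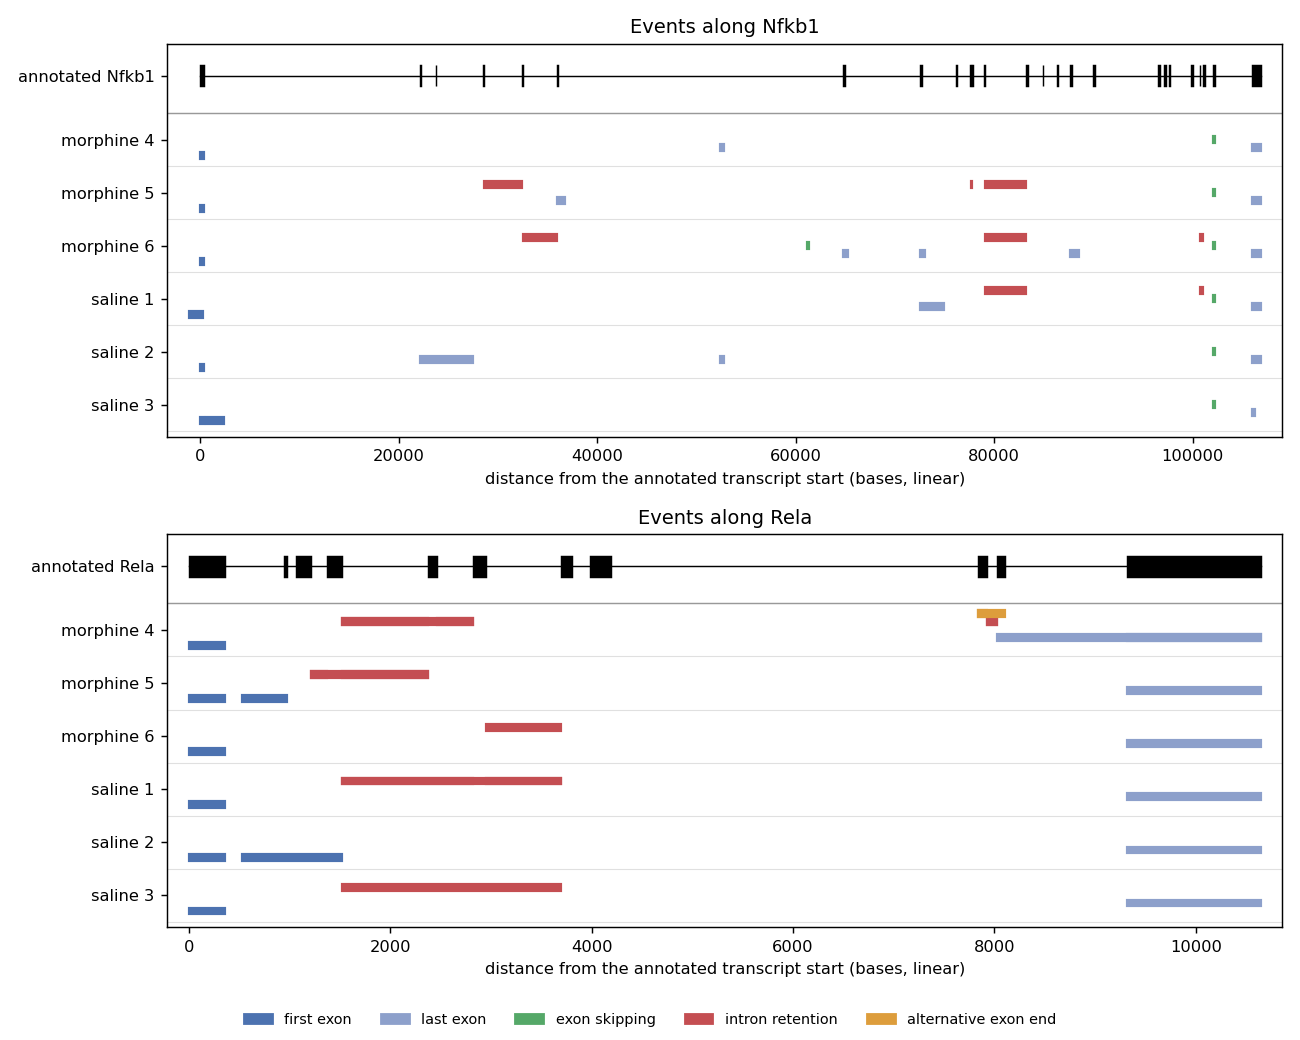
Events along Nfkb1 (top) and Rela (bottom) by library, against the annotated exons (black); the horizontal axes are distances in bases from the annotated transcript starts, colours give the event class, and overlapping retention events of a library are drawn on the same row. Skipping of the next to last Nfkb1 exon (green, near the right end) recurs in all 6 libraries, whereas retention (red) is scattered over 5 introns of each gene.

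**Figure D4:**
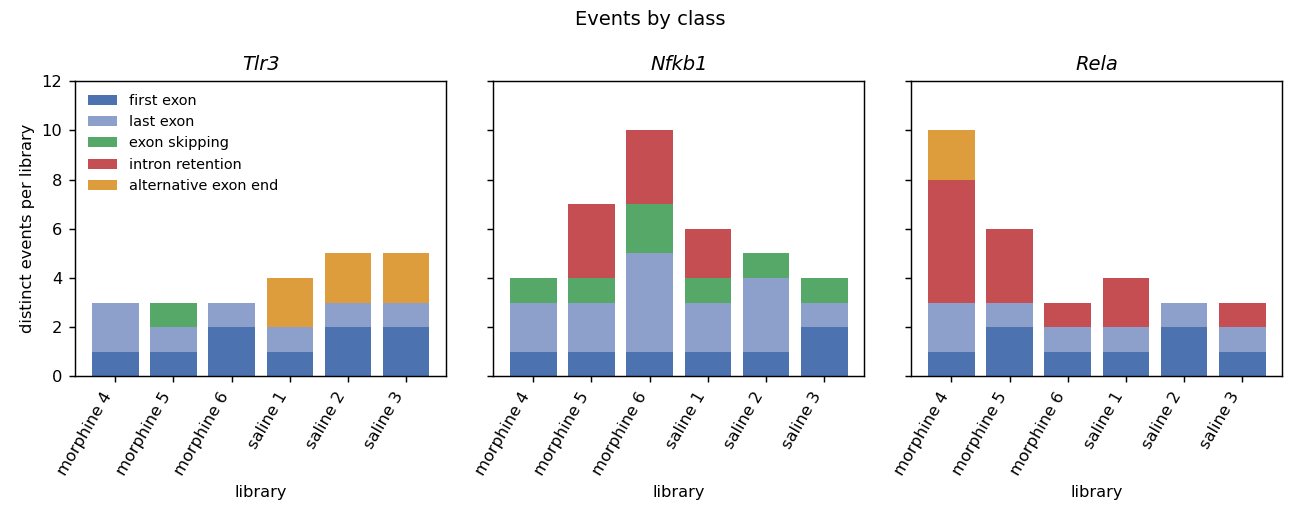
Distinct events (vertical axis, linear, from 0) of Tlr3, Nfkb1 and Rela in each library, stacked by event class. Retention makes up 5 of the 10 Rela events in morphine 4 and 3 of the 10 Nfkb1 events in morphine 6, and the Tlr3 difference lies in the alternative exon ends of the saline libraries.

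All retention events of the 10 genes were in Nfkb1 and Rela, and none had all its exons in the annotation. Together they numbered 5, 6 and 4 in morphine libraries 4, 5 and 6 and 4, 0 and 1 in saline libraries 1, 2 and 3. Saline libraries 2 and 3, with 0 and 1, were also those with the lowest retention totals over all genes (5074 and 5010), and saline 1, with 4, had a total of 7425, within the range of the morphine libraries. The part of these totals in the Nfkb1 and Rela values was not tested. All events of the 2 subunit genes summed to 14, 13 and 13 in morphine and 10, 8 and 7 in saline, and those of the other 8 genes to 15, 18 and 13 in morphine and 19, 17 and 19 in saline. This split by role was made with the values known and carries no test. Over the 10 genes the sums were 29, 31 and 26 in morphine and 29, 25 and 26 in saline, which overlapped.

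The 10 genes had 60 distinct events. Of these, 12 were listed in all 6 libraries (20.0%, beside 20.9% of the events of all genes) and 27 in a single library (45.0%, beside 50.7%). Of the 27, 21 were in a morphine library (77.8%, beside 51.4% of the 65299 such events of all genes) and 6 in a saline library. By library they numbered 9, 7 and 5 in morphine libraries 4, 5 and 6 and 2 in each saline library, counts made after the values were seen and not tested. Most of the 21 in a morphine library were in Nfkb1 and Rela, and the others in Tlr3 and Tlr7. Several of the Rela ones in morphine 4 described the same stretch, chr19:5645325-5645587, under different type codes. Nfkb1 and Rela also have the most exons of the 10 genes, 25 and 12 in their largest annotated transcripts. The part of exon number in these counts was not tested. No event was in all 3 morphine libraries and no saline library. Annotated boundaries were found for 41 of the 60 (68.3%, beside 63.6%). Among 128 listings of first and last exons over the 6 libraries, 85 (66.4%) had both the start and the end of an annotated exon.

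In likeness of pattern, taken as the sum over the 6 libraries of the differences in event number, Tlr4, Cd14 and Myd88 each had the same pattern as 2778 other tested genes, each other and C1qa, C1qb and Cd180 among them. Tlr2 and Ly96 each had that of 68 other tested genes, each other included, and among the listed pathway and microglial genes only of Btk, a kinase of myeloid and B cells. Nearest to Tlr3 among these listed genes were Irak2, P2ry12 and Peli3 at a distance of 4 events, and nearest to Rela was Peli1 at 6. Nothing in the lists came closer to Nfkb1 than Siglech, at 11, to Tlr7 than Cnpy3, at 5, or to Tlr9 than Tlr8, at 5. Over all tested genes, 1 other had the same pattern as Tlr3 and 14 others that of Tlr9. The smallest distance of any tested gene was 3 for each of Tlr7, Nfkb1 and Rela.

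Of 65 other genes of the pathway, 55 were listed and 52 tested, and 3 did not overlap between groups, all with more events in morphine, where 1.64% of all tested genes did so; 0 lay lower, beside 1.43%. Limma called 0 of the 52, with 4 at an unadjusted p under 0.05, beside 480 of all 15040 tested genes. The median log2 difference of the 52 was 0.0, as over all tested genes. Unc93b1, the chaperone that carries Tlr3, Tlr7 and Tlr9 to endosomes, had 5, 4 and 4 events in morphine and 3, 3 and 2 in saline, a log2 difference of 0.62. Every morphine library was above every saline library (limma adjusted p 0.905; exact permutation p 0.1). With annotated events alone it had 3.0 events in morphine and 2.0 in saline, with no spread in either group and a limma adjusted p of 1.25e-07, whereas the groups overlapped when the count left out retention and alternative ends, or all but first and last exons.

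Irak1, the kinase recruited by Myd88 and Irak4, had 12, 14 and 10 events in morphine and 6, 8 and 9 in saline, a log2 difference of 0.62 (limma adjusted p 0.905; exact permutation p 0.1). The groups were separate, and exon skipping numbered 4, 4 and 0 in morphine and 0 in each saline library. The Irak1 groups overlapped with annotated events alone, with exact-boundary types alone, with each retained exon counted once, and when retention and alternative ends or all but first and last exons were left out. Chuk, the IKKα subunit of the kinase complex that phosphorylates NF-kB inhibitors, had 21, 7 and 7 events in morphine and 5, 6 and 5 in saline (log2 difference 0.87; limma adjusted p 0.905; exact permutation p 0.1). Morphine 4 stood far above the rest, and without it the difference was 0.37. The Chuk groups overlapped with annotated events alone, and when retention and alternative ends or all but first and last exons were left out.

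The other genes named for having the most events of their role overlapped between groups. Ikbkb, the partner kinase of Chuk, had 5, 26 and 18 events in morphine and 8, 9 and 9 in saline, and Map3k7, the kinase upstream of both, had 12, 16 and 7 in morphine and 16, 7 and 8 in saline. Their morphine libraries lay on both sides of or level with the saline ones. Cyld, a deubiquitinase that limits the pathway, had 11, 5 and 15 in morphine and 13, 17 and 18 in saline, and Nfkbiz, which encodes an atypical nuclear member of the NF-kB inhibitor family, had 4, 2 and 2 in morphine and 2, 2 and 6 in saline. Among adaptors, Tirap, the bridge to Myd88, had 2, 3 and 2 in morphine and 2, 5 and 2 in saline, and Sarm1 had 6, 2 and 4 in morphine and 2, 6 and 2 in saline. None of these 6 genes was separate between groups.

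Irf3, the factor of interferon genes activated through Ticam1, had 10, 5 and 13 events in morphine and 8, 7 and 8 in saline, and Irf5 had 4, 2 and 4 in morphine and 2, 3 and 3 in saline. The receptor Tlr13 had 2 events in each morphine and each saline library, and Tlr8 had 0, 3 and 0 in morphine and 0 in each saline library. Cnpy3, a chaperone of several of the receptors, had 3, 3 and 2 in morphine and 2, 2 and 3 in saline. Outputs of the pathway were sparsely listed. Ccl2 had 0, 0 and 2 in morphine and 2, 0 and 0 in saline, and Ccl3 was listed in no morphine library and had 0, 2 and 2 events in saline. Tlr1, Tlr5, Tlr6, Tlr11, Tlr12, Tnf, Il12b, Cxcl10, Ccl4 and Ifnb1 were listed in none of the 6 catalogues, which does not show that they were not expressed.

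**Figure D5:**
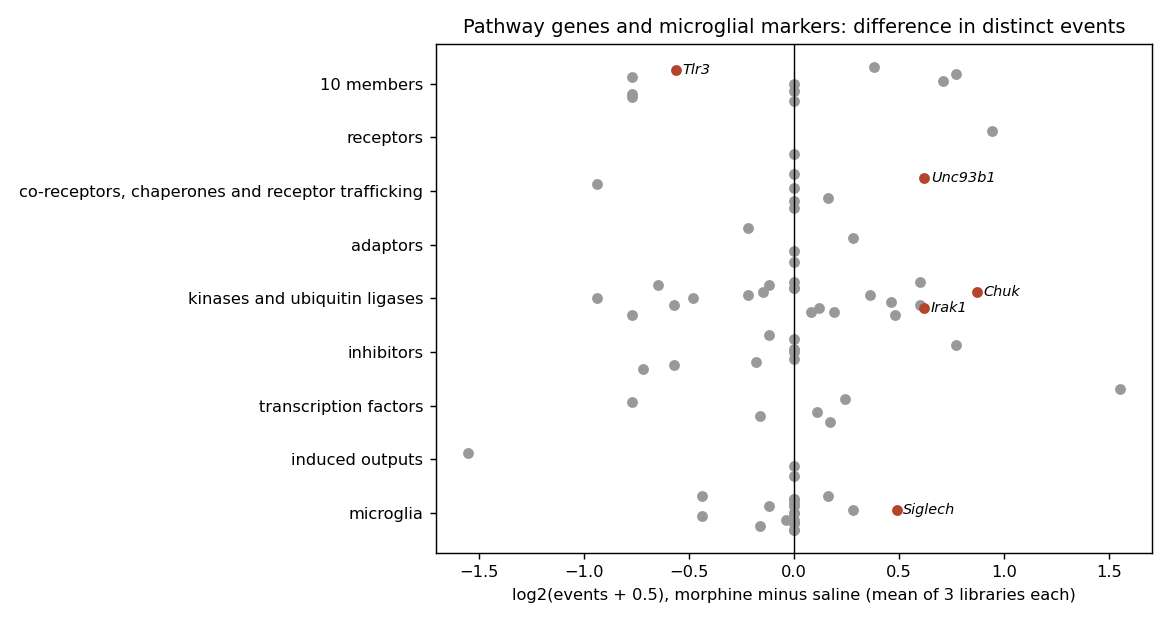
Difference in log2(events + 0.5), morphine minus saline (horizontal axis, means of 3 libraries each), for every tested gene of the 10 members, of the other pathway roles and of the microglial markers; each point is a gene, and red points are genes whose groups did not overlap. Tlr3 lies at -0.56 and Unc93b1, Irak1 and Chuk between 0.62 and 0.87, with other genes on both sides of 0.

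The tissue's own markers were present, with 9 of 9 medium spiny neuron markers and 19 of 19 microglial markers listed in all 6 libraries. Of all listed genes, 81.2% were in all 6. One of the neuronal markers did not overlap, Rgs9, with 5, 6 and 6 events in morphine and 4 in each saline library (limma adjusted p 0.385; exact permutation p 0.1). The microglial markers summed to 45, 47 and 50 events in morphine and 46, 50 and 46 in saline, which overlapped. Among these 1 did not overlap, the lectin gene Siglech, with 5, 5 and 6 events in morphine and 3, 4 and 4 in saline (limma adjusted p 0.905; exact permutation p 0.1). Over the 54 tested markers of all cell types, 2 did not overlap, both higher in morphine, beside 1.64% of all 15040 tested genes in that direction. Markers of border macrophages and blood myeloid cells summed to 20, 20 and 17 in morphine and 16, 16 and 20 in saline, and 8 of those 10 genes were in all 6 catalogues. Markers of astrocytes, which carry some of these receptors as well, summed to 17, 18 and 18 in morphine and to 18 in each saline library, and those of oligodendrocytes to 27, 26 and 28 in morphine and 28, 28 and 27 in saline. The 4 listed endothelial markers summed to 16, 15 and 16 in morphine and 19, 17 and 18 in saline. Every morphine library lay below every saline library in the endothelial sum, alone among the marker sums, though none of the 4 genes was separate by itself. The sum carries no test, and no share of separate sums over like sets of genes was computed. Slco1a4 had 4, 3 and 4 events in morphine and 8, 4 and 5 in saline, and Pecam1 had 7, 7 and 7 and 6, 8 and 8. Flt1 and Cdh5 each had the same number in every library, and the endothelial marker Cldn5 was listed in none. The part of the cell makeup in the values above was not tested.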

How the data were processed

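Per the file headers, each deposited table lists event type, gene, position, pattern of splice sites and strand. The sources used here do not name the assembler, event caller, aligner or build. The column headed fpkm in the authors' deposited files holds whole numbers of 0 or below and was not used as an expression value. Distinct events were counted per gene and library by type, pattern and strand, leaving out the OFF codes that repeat an event for its partner transcript. Alternative exon ends have no such codes, and each form was kept as its own event, so the same exon can count more than once. The members and lists were chosen with earlier results of these data known. Named are all members, every other pathway gene whose groups did not overlap, and per role the 2 genes with the most events, ties taken by alphabet (Tollip tied with Nfkbiz, and Ccl5 with Ccl2 and Ccl3). Limma 3.58.1 (R 4.3.3, trend, Benjamini-Hochberg adjustment) was fitted to log2(events + 0.5) in the 15040 genes that averaged 0.5 events or more. Of its 96 calls, 87 had no spread within either group. It was also run on simulated data. Changes were placed there only in genes averaging more events than any member, so that run cannot show whether changes in the members would be called. Positions and sequences came from GENCODE M21 and RefSeq. Alternatives covered pseudocount, filter, scaling, event classes and left-out libraries.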

Additional observations from a re-analysis of the deposited data

How the results depend on the processing

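Over all tested genes limma called 96, against 44 with robust eBayes and 250 to 285 with any 1 library left out. Non-overlapping genes numbered 462, against 818 with event numbers scaled to equal library totals, 256 with first and last exons alone, and 961 to 1102 with any 1 library left out, where fewer samples must be separated. The cause of the other changes was not tested. Of the members' differences under the alternatives, 100 kept their sign, 42 were 0 as before, 2 turned, 3 became 0 and 3 left 0 (Tlr4, Cd14 and Myd88, at -0.01 with equal library totals); 1 passed the threshold, Tlr3 without saline library 1. Those that became 0 were Tlr2 and Ly96 without morphine library 4 and Tlr3 with first and last exons alone. Tlr3 turned to 0.16 (log2) without intron retention and alternative exon ends. It lay between -0.65 and -0.51 with a library left out. Its groups overlapped when partner rows were counted, at -0.43. Tlr7 ranged from -1.36 to 0.22 with a library left out, the highest without morphine library 6. For the other named genes 187 kept their sign, 22 were 0 as before, 16 turned, 4 became 0 (Tirap and Irf3), 6 left 0 (Tlr13, and Ccl2 at up to 0.39 either way) and 2 passed the threshold. These 2 were Unc93b1 with annotated events alone and Ccl3, which no morphine library listed, without saline library 1. Ikbkb turned to -0.04 with first and last exons alone. Map3k7 turned to -0.03 with annotated events alone, -0.06 with first and last exons alone and -0.05 without intron retention and alternative exon ends; Nfkbiz turned to 0.12 under each of these. Irf3 turned to -0.10 with annotated events alone, -0.15 with exact-boundary types alone and -0.01 with partner rows counted. With a library left out, Map3k7 ranged from -0.07 to 0.53, Nfkbiz from -0.46 to 0.28, Irf3 from -0.10 to 0.55, Sarm1 from -0.04 to 0.74 and Tirap from -0.41 to 0.16. No paired analysis was possible because the groups share no replicate numbers. The unknown depth limits every count: a sparsely sequenced transcript can be missing from a catalogue.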
